A study of Mus musculus with 15 samples.

Results

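The replication-dependent histone genes were followed in mouse medulloblastoma, a tumour of the cerebellum, and in normal cerebellum. The genes were taken by name: every gene on the array whose current symbol begins with H2ac, H2bc, H3c or H4c, or is one of H1f1 to H1f6. This gave 29 genes of the 17155 gene symbols on the array, 24 of them in the chromosome 13 cluster (the older Hist1 group) and 5 in the chromosome 3 cluster. They comprised 6 linker histone H1 genes, 9 H2A, 7 H2B, 3 H3 and 4 H4 genes. Of the 65 symbols in the RefSeq gene table that meet the rule, the other 36 had no probe used here. In all, 26 of the 29 genes were well above background on at least 3 of the 15 arrays and were tested, 21 on chromosome 13 and 5 on chromosome 3. H2ac6 and H2bc6 were not well above background on any array, and H1f6, the testis linker histone, was so on 1 array. Of the 26, 4 (H1f3, H2ac4, H2ac8 and H3c1) entered the tests through the tumours alone, since no normal cerebellum gave a signal well above background. A higher value in tumours was therefore built into their selection. H2bc23 entered through 2 S-type tumours and 1 normal cerebellum alone, so a lower value in R-type tumours was likewise built in.

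Histones H2A, H2B, H3 and H4 form the core around which DNA is wrapped, and H1 binds the DNA between the cores. Cells make most of this protein during S phase from clustered genes that have no introns, and the resulting messages usually end in a stem-loop bound by Slbp, not in a poly(A) tail. Granule neuron precursors, from which tumours with an active sonic hedgehog (SHH) pathway arise, divide quickly, whereas neurons of the adult cerebellum no longer divide. The RNA had been labelled with a linear amplification kit, a method that starts from a primer on the poly(A) tail, so the signals need not follow the amount of stem-loop message. Some histone genes, H1f2 and H2bc4 among them, are known to give polyadenylated messages in cells that have stopped dividing.

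The 12 tumours came from C3B6F1 mice heterozygous for Ptch1 (Ptch1+/-), a mutation in the receptor that restrains the SHH pathway, and are labelled R-type or S-type, letters that the labels do not explain. The R-type tumours followed X-rays on postnatal day 1 at 0.2 Gy (MB7 to MB9) or at 1.5 Gy (MB10 to MB12). The S-type tumours followed 0 Gy (MB1 to MB3) or 0.2 Gy (MB4 to MB6), and each group had 3 arrays. The 3 normal cerebella came from unirradiated mice whose genotype and strain are not given. Ages, which have no unit in the labels, spanned 87 to 127 in the R-type, 128 to 173 in the S-type and 103 to 113 in the normal group. All mice were female except that of MB6. Every tumour carried the Ptch1 mutation, no S-type tumour had received 1.5 Gy and no R-type tumour 0 Gy, so that type, dose and age vary together. Each array held the RNA of 1 mouse, so p-values reflect how much these mice varied.

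The regions before 4 of these genes are shown because their genes behaved differently in the tumours. H2ac4 was bright in every tumour and not well above background in any normal cerebellum. H1f1 was higher in R-type than in S-type tumours, and H1f2 was lower in tumours. H2bc12 was higher in R-type and lower in S-type tumours than in normal cerebella. Its R-type call passed under 13 of 25 alternative fits and was lost without scaling, among others. Each sequence runs 5′ to 3′ from 250 bases before to 50 bases after the start of the gene in RefSeq, build GRCm38.p6, all on the plus strand: H2ac4 at chr13:23750838-23751137, H1f1 at chr13:23763418-23763717, H1f2 at chr13:23738557-23738856 and H2bc12 at chr13:22035571-22035870. Capitals mark matches on either strand to TATAAA (the TATA box), CCAAT (the CCAAT box) and ATTTGCAT (the octamer, a site for the POU factor Pou2f1), and no match shared a base with another.
H2ac4: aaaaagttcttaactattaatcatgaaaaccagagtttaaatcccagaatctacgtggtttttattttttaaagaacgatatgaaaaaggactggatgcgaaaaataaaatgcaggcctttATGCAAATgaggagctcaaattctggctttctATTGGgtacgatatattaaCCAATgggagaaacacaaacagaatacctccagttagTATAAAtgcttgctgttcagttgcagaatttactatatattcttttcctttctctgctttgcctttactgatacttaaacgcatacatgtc
H1f1: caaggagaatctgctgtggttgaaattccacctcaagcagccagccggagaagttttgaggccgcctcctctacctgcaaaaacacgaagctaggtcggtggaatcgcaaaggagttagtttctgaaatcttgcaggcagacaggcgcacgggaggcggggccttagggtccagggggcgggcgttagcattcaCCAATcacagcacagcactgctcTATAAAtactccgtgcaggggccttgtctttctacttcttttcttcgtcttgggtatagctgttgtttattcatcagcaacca
H1f2: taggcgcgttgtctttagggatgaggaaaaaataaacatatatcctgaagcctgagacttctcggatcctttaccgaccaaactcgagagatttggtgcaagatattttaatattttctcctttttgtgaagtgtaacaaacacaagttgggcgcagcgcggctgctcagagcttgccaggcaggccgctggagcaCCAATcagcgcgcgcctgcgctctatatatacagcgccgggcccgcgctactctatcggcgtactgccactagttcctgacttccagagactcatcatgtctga
H2bc12: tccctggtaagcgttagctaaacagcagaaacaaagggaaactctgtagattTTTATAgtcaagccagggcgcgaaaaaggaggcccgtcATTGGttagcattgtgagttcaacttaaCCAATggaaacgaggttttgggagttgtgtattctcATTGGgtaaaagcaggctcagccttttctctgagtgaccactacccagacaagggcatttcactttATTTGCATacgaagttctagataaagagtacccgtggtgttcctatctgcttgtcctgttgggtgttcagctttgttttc
Such a window was found for 22 of the 26 tested genes. TATAAA was present in 72.7% of these 22 windows, against 13.6% of all 32851 windows of the RefSeq table. CCAAT stood in 95.5% of the 22, against 37.4% of all. The octamer stood in 31.8% of the 22, against 1.74% of all. Whether or not on the array, 58 of the 65 histone genes that meet the rule had such a window. Among these the octamer occurred in 46.7% of 15 H2B windows (14 genes) and 35.3% of 17 H2A windows. It occurred in 0 of 6 H1, 10 H3 and 11 H4 windows. CCAAT occurred in every H1, H2A, H2B and H3 window but in 27.3% of the H4 windows. These matches describe the letters of the windows only.

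Signals are given as log2 values relative to the 75th percentile of their own array, so that 0 is the level of that percentile and 1 unit is a doubling. Between 59.1% and 66.5% of the probes were well above background on an array. Tumours and normal cerebella matched their labels: 8 of 8 tested markers of granule neuron precursors and SHH medulloblastoma passed as higher in tumours, with a summed signal of 138 to 182 in R-type and 134 to 194 in S-type tumours, against 1.32 to 1.36 in normal cerebella, in units of the array's 75th percentile. All 5 Purkinje cell markers and all 6 markers of mature granule neurons passed as lower in tumours. The 6 markers of microglia and macrophages were higher, and 4 of 5 each for oligodendrocytes and astrocytes were lower. In whole tissue, fewer cells of a type and less RNA per cell cannot be told apart, and the part of this change of cells in the histone results was not tested. The median change of all 21659 features tested was 0.14 between tumours and normal cerebella with this scaling and −0.04 without scaling, and the changes below are read against that median.

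Probes of different histone genes can bind each other's messages, because coding sequences within a class are nearly identical, and the files give no probe sequences. Several genes, grouped after their values were seen, ran in parallel over the 15 arrays. The difference between H2bc1, H2bc12 and H2bc14 varied over a range of 0.10 to 0.16 log2 units for each pair, and that between the 4 H4 genes over 0.14 to 0.22. H3c4 and H3c14, which lie on different chromosomes, held their difference within 0.14. Which of these genes gave the signal cannot be told apart, and H2bc1 and H2ac1 are known as testis forms. The gene names below are those of the probes, and counts of genes may take the same signal more than once.

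**Figure D1:**
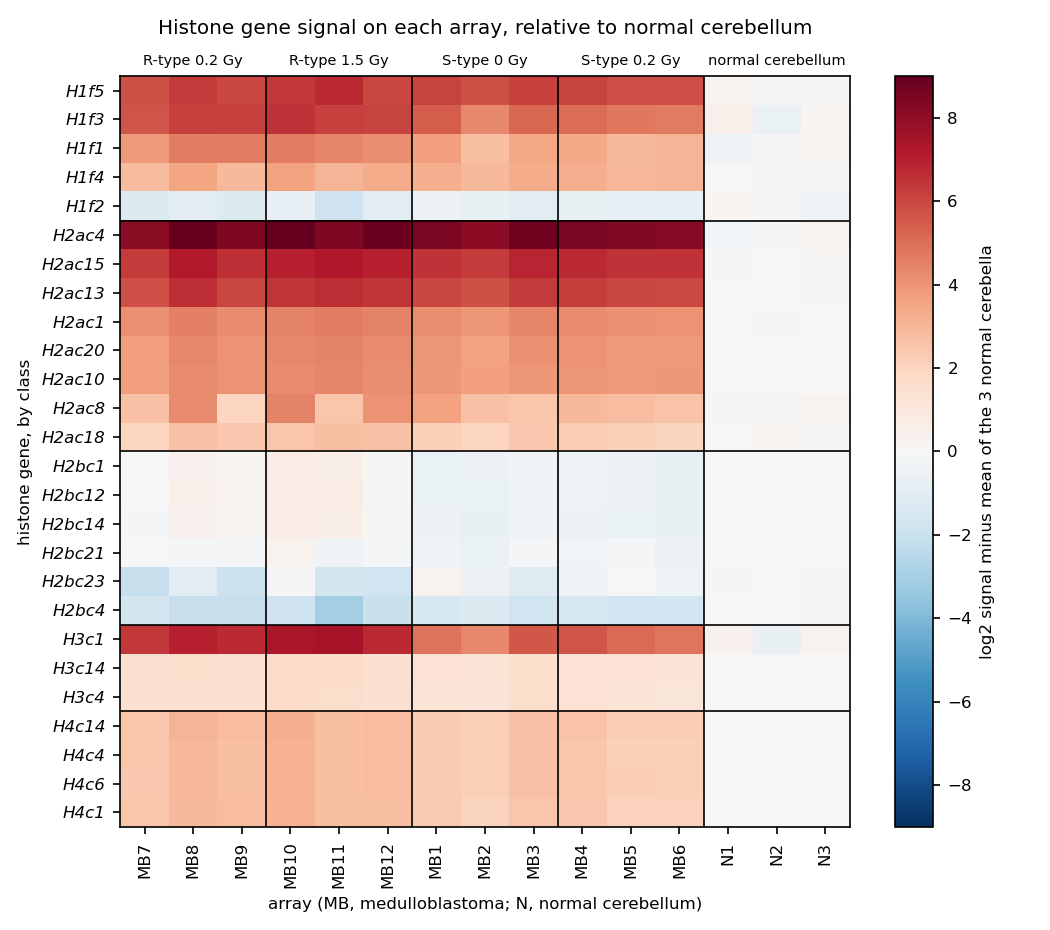
Signal of the 26 tested histone genes (rows, by class) on each of the 15 arrays (columns, in their groups), as log2 signal minus the mean of the 3 normal cerebella. H1, H2A, H3 and H4 genes are above 0 in every tumour except H1f2, whereas H2B genes lie on either side of 0, with a median change of −0.17 between tumours and normal cerebella.

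Of the 26 tested histone genes, 19 were higher in tumours than in normal cerebella, 3 were lower and 4 did not pass (limma, Benjamini-Hochberg adjusted p under 0.05 over all features). The median change was 2.58 log2 units, against 0.14 over all features, of which 43.5% were higher and 35.4% lower. Among the 22 genes that were well above background on at least 1 normal cerebellum, 15 were higher and 3 lower, with a median of 2.54. With the other 4 at their lower bounds, the median of the 26 was 2.56. By class, the genes measured in normal cerebella that were higher numbered 6 of 6 for H2A, 2 of 2 for H3, 4 of 4 for H4, 3 of 4 for H1 and 0 of 6 for H2B. No test of the classes against each other was made. Of the 22 calls, 21 passed under every alternative processing tried, the exception being H2bc23.

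H2A genes, which pair with H2B in the nucleosome core, had changes between 2.32 and 6.72 for the 6 that were measured in normal cerebella, and bounds for H2ac4 and H2ac8. H2ac4 had log2 signals of 0.65, 1.12 and 1.71 (lowest, median and highest) in the 6 R-type tumours and 0.56, 0.89 and 1.21 in the 6 S-type tumours, against −7.72, −7.57 and −7.19 in normal cerebella. Every tumour lay above every normal cerebellum, in none of which the probe was well above background, so the change is a bound. With means of 1.04 ± 0.37 in tumours (SD, n = 12) and −7.49 ± 0.27 in normal cerebella (SD, n = 3), H2ac4 was at least 95-fold higher in tumours (limma adjusted p = 6.92e-12). Since H2ac4, H1f3, H3c1 and H2ac8 entered through the tumours, their adjusted p-values are given as the fit's output and are no separate evidence of the rise. The bound sets the dim group at the lowest signal well above background on each array.

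H2ac15 reached 4.48, 5.17 and 5.37 in R-type and 4.45, 4.69 and 5.02 in S-type tumours, against −1.94, −1.83 and −1.71 in normal cerebella. The groups of tumours and normal cerebella did not overlap, and H2ac15 was 105-fold higher in tumours (log2 change 6.72, SE 0.15, limma adjusted p = 2.56e-12). H2ac13 followed it closely, at 3.41, 4.09 and 4.30 in R-type and 3.36, 3.63 and 3.94 in S-type tumours, against −2.42, −2.40 and −2.29 in normal cerebella. Its change was 6.18 (SE 0.16), or 72.6-fold. The difference between H2ac13 and H2ac15 stayed within 0.07 over the 12 tumours but varied over a range of 0.66 over all 15 arrays.

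H2ac1, H2ac10 and H2ac20 were bright on all arrays. H2ac1 gave 7.47, 7.82 and 7.98 in R-type and 7.30, 7.51 and 7.75 in S-type tumours, against 3.31, 3.33 and 3.43 in normal cerebella, a 19.5-fold difference (log2 change 4.29, SE 0.11). H2ac20, in the chromosome 3 cluster, gave 7.14, 7.68 and 7.87 in R-type and 7.07, 7.35 and 7.56 in S-type tumours, against 3.41, 3.42 and 3.45 in normal cerebella. It was 16.5-fold higher in tumours, and H2ac10 was 16.2-fold higher. For each of these genes no tumour overlapped a normal cerebellum. A second probe of H2ac10 gave a larger change, 6.58 log2 units against 4.02 for the probe used.

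H2ac18 of the chromosome 3 cluster was 4.99-fold higher (log2 change 2.32, SE 0.13), and its signals were 0.22 to 0.97 in R-type and 0.18 to 0.67 in S-type tumours, against −1.82 to −1.59 in normal cerebella. H2ac8 was dim: 9 of 12 tumours and no normal cerebellum were well above background, and it was at least 1.91-fold higher in tumours, with means of −4.60 ± 0.81 and −7.68 ± 0.25.

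Linker histone genes split. H1f5 had signals of 1.22, 1.67 and 2.24 in R-type and 1.23, 1.46 and 1.69 in S-type tumours, against −4.67, −4.60 and −4.21 in normal cerebella. That is a 67.2-fold difference (log2 change 6.07, SE 0.16, limma adjusted p = 1.07e-11) without overlap. H1f4 stood at 1.63, 1.95 and 2.37 in R-type and 1.70, 1.92 and 2.12 in S-type tumours, against −1.35, −1.23 and −1.17 in normal cerebella, 9.17-fold higher in tumours.

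H1f1 was at −1.17, −0.56 and −0.36 in R-type and −2.33, −1.81 and −1.36 in S-type tumours, against −5.44, −4.91 and −4.77 in normal cerebella. It was 13.9-fold higher in tumours (log2 change 3.80, SE 0.23), and the 3 kinds of sample occupied separate ranges. H1f3, not well above background in any normal cerebellum, had means of −1.20 ± 0.70 in tumours and −6.71 ± 0.54 in normal cerebella and was at least 20.1-fold higher in tumours (limma adjusted p = 7.30e-10). A second H1f3 probe was not well above background on any array.

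H1f2 went the other way. Its signals were −1.02, −0.28 and 0.13 in R-type and −0.11, 0.14 and 0.30 in S-type tumours, against 0.52, 0.94 and 1.04 in normal cerebella. All 12 tumours lay below all 3 normal cerebella, and H1f2 was 1.92-fold lower in tumours (log2 change −0.94, SE 0.19, limma adjusted p = 0.000648). Within the 3 slides that held a normal cerebellum, the difference ran from −1.37 to −0.66.

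H3 genes rose by very different amounts. H3c1 had signals of 0.15, 0.65 and 1.19 in R-type and −1.91, −1.23 and −0.58 in S-type tumours, against −6.91, −5.88 and −5.83 in normal cerebella. No normal cerebellum was well above background, and with means of −0.23 ± 1.06 in tumours and −6.21 ± 0.61 in normal cerebella H3c1 was at least 39.6-fold higher in tumours (limma adjusted p = 2.18e-09). H3c4 and H3c14 changed far less, 2.63-fold and 2.67-fold. H3c4 measured 5.90, 6.02 and 6.17 in R-type and 5.61, 5.76 and 6.11 in S-type tumours, against 4.50, 4.51 and 4.55 in normal cerebella. H3c14 measured 6.56, 6.69 and 6.82 in R-type and 6.36, 6.48 and 6.75 in S-type tumours, against 5.11, 5.18 and 5.25 in normal cerebella. Tumours and normal cerebella did not overlap for either gene.

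The 4 H4 genes gave nearly one value, from 2.52 for H4c1 to 2.60 for H4c14, or 5.73-fold to 6.05-fold. H4c6 measured 4.75, 5.10 and 5.47 in R-type and 4.48, 4.64 and 4.97 in S-type tumours, against 2.34, 2.36 and 2.37 in normal cerebella. H4c4 measured 4.34, 4.58 and 4.97 in R-type and 3.98, 4.12 and 4.46 in S-type tumours, against 1.81, 1.83 and 1.90 in normal cerebella. Every tumour stood above every normal cerebellum for each of the 4 genes. A second probe of H4c4 gave 2.87, where the probe used gave 2.56.

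No H2B gene passed as higher over all tumours. H2bc4, the lowest of all, had signals of −1.95, −0.93 and −0.57 in R-type and −0.68, −0.50 and −0.12 in S-type tumours, against 1.02, 1.12 and 1.16 in normal cerebella. It was 3.58-fold lower in tumours (log2 change −1.84, SE 0.21, limma adjusted p = 4.35e-06), with all 12 tumours below all normal cerebella. H2bc12 had signals of 2.69, 3.02 and 3.39 in R-type and 2.00, 2.14 and 2.38 in S-type tumours, against 2.69, 2.70 and 2.71 in normal cerebella. The normal values lay above every S-type tumour and at the lower end of the R-type tumours, and the change of −0.09 (SE 0.12) did not pass (limma adjusted p = 0.511).

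H2bc1, at −0.09 (SE 0.11), and H2bc14, at −0.12 (SE 0.12), gave the same picture as H2bc12, whose probes they ran parallel to. H2bc1 had signals of 1.60, 1.92 and 2.26 in R-type and 0.95, 1.05 and 1.26 in S-type tumours, against 1.59, 1.60 and 1.61 in normal cerebella. H2bc14 had signals of 2.67, 3.06 and 3.39 in R-type and 2.06, 2.17 and 2.40 in S-type tumours, against 2.71, 2.71 and 2.80 in normal cerebella. For both, S-type tumours lay below every normal cerebellum and R-type tumours overlapped them. A second probe of H2bc12 gave 0.04. H2bc21 of the chromosome 3 cluster had −0.22 (SE 0.13, limma adjusted p = 0.142), with signals of −0.29 to 0.36 in R-type and −0.53 to −0.09 in S-type tumours, against 0.04 to 0.08 in normal cerebella. H2bc23 passed as lower (limma adjusted p = 0.0363) but was well above background on 3 arrays alone, 2 S-type tumours and 1 normal cerebellum, and the call was lost under 11 of 24 alternatives, so no fold is given. Its means were −6.36 ± 0.82 in tumours and −5.47 ± 0.09 in normal cerebella. Without scaling, H2bc14 and H2bc21 also passed as lower, and no H2B gene passed as higher between tumours and normal cerebella under any alternative tried.

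**Figure D2:**
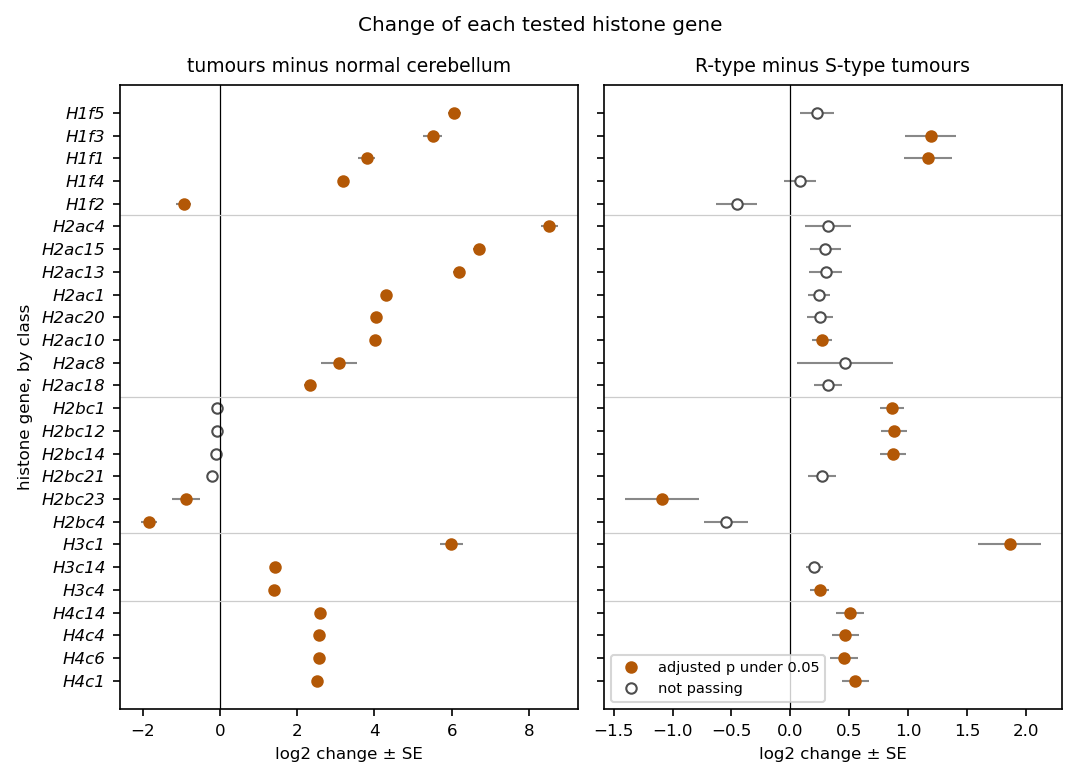
Log2 change (points) with its standard error (bars) for the 26 tested histone genes, tumours minus normal cerebellum on the left and R-type minus S-type tumours on the right. Among genes measured in normal cerebella H2ac15 has the largest change on the left (6.72), and H3c1 has the largest on the right (1.86). Filled points passed at adjusted p under 0.05, and the fitted values of H1f3, H2ac4, H2ac8, H3c1 and H2bc23 rest on a group near background.

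Where the clusters are taken apart, the 21 tested genes of chromosome 13 had a fitted median change of 3.08 between tumours and normal cerebella, with 15 higher and 3 lower. That median is the fitted value of H2ac8, and with the 4 genes not above background in normal cerebella at their bounds it was 2.56. The 17 genes measured in normal cerebella had 11 higher and 3 lower. The 5 of chromosome 3 had a median of 2.32, with 4 higher and none lower. The 2 sets were not tested against each other. H4c14 and H3c14 of chromosome 3 ran in parallel with H4 genes and H3c4 of chromosome 13, so the sets may share signal. Between H2ac10 and H2ac20 the difference varied over a range of 0.29 over the 15 arrays. Beside them, 3 genes with an older Hist symbol but another current name were read. H2aw on chromosome 11, an H2A gene, was 10.2-fold higher in tumours, although its second probe gave −0.04 log2 units. H4f16 on chromosome 6, an H4 gene, was 6.41-fold higher, and H2bu2 on chromosome 11, an H2B gene, had −1.002 (SE 0.25, limma adjusted p = 0.00289).

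Genes that make, process and assemble histones were read from lists made with earlier results of these data known. Of 23 tested genes for histone supply and message processing, 20 passed as higher in tumours and 3 as lower, with a median of 0.91. Slbp, which binds the stem-loop, averaged 3.55 in tumours and 1.89 in normal cerebella (log2 change 1.65, SE 0.09). Casp8ap2, needed for cutting the message, changed by 1.48, Lsm10 and Lsm11 of the U7 particle by 1.07 and 0.28, and Npat, the coactivator of the histone clusters, by 0.30. All 5 passed. The smallest adjusted p-values in the list belonged to Ccna2, Cdk2 and E2f1, cell cycle genes, with Ccna2 at 4.70 in tumours and −3.09 in normal cerebella. Cdk2 was not well above background in normal cerebella and was at least 8.23-fold higher in tumours.

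Of 22 histone chaperone and assembly genes, 20 were higher and 1 lower, with a median of 1.49. Chaf1b, Asf1b and Chaf1a, which load new H3 and H4 behind the replication fork, changed by 7.58, 4.89 and 4.10, and Hjurp, the chaperone of the centromeric H3, by 3.18. All 10 tested histone variants that are made outside S phase or lie outside the rule were higher, among them Cenpa (7.13), H2aj (3.43), H2az1 (2.09) and H3f3a (1.54). Of 21 S phase genes, 21 were higher, with a median of 4.13 against 2.58 for the histone genes. Tyms, Mcm6 and Mcm3 changed by 5.66, 5.90 and 6.10, and Tk1 was at least 404-fold higher. The part of S phase genes in the histone change was not tested.

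The tumour types differed in the histone genes too. Of 26 genes, 12 were higher in R-type than in S-type tumours, 1 (H2bc23) was lower and 13 did not pass. The median was 0.31 against 0.02 over all features. H2bc23 met the filter through no R-type tumour, so its lower value there was built into its selection. Over all features, 11% were higher and 10.1% lower. The 12 comprised H3c1, H1f1, H1f3, H2bc1, H2bc12, H2bc14, the 4 H4 genes, H2ac10 and H3c4. By class these were 4 of 4 H4, 3 of 6 H2B, 2 of 3 H3, 2 of 5 H1 and 1 of 8 H2A genes. The probes of the 4 H4 genes, and those of H2bc1, H2bc12 and H2bc14, ran in parallel, so their calls may repeat the same signal. Calls of all features moved with scaling: 52.2% of those that passed were higher with the 75th percentile and 9.04% without scaling, where the median of all features was −0.20. Without scaling, 7 histone genes were higher and 3 lower, with a median of 0.09. Among cell markers, 1 of 6 for mature granule neurons was higher and 1 lower in R-type tumours, with a median of −0.96 and summed signals of 33.6 to 39.8 in R-type and 19.8 to 39.1 in S-type tumours. For astrocytes 1 of 5 was higher (median 0.39), for oligodendrocytes 1 of 5 was higher (median −0.58) and for microglia and macrophages 1 of 6 was lower (median −0.25). For granule neuron precursors 1 of 8 was higher (median 0.07), and no marker of Purkinje cells, blood or endothelium passed. Their part in the histone difference was not tested.

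H3c1 showed the largest difference, with the values given above separating the types without overlap. R-type tumours averaged 0.70 ± 0.40 (SD, n = 6) and S-type tumours −1.16 ± 0.50 (SD, n = 6), a 3.63-fold difference (log2 change 1.86, SE 0.27, limma adjusted p = 0.000953). Within each of the 4 slides R-type exceeded S-type tumours, by 0.89 to 2.75.

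H1f1 and H1f3, both linker histone genes, also separated the types completely. Over the 12 tumours the difference between H1f1 and H1f3 varied over a range of 0.49 log2 units. Whether their probes read the same signal was not tested, so these calls may not be separate. H1f1 averaged −0.66 ± 0.32 in R-type and −1.83 ± 0.37 in S-type tumours, 2.25-fold higher in R-type (log2 change 1.17, SE 0.20, limma adjusted p = 0.00272). H1f3 averaged −0.61 ± 0.26 in R-type and −1.80 ± 0.40 in S-type tumours, 2.28-fold higher (SE 0.22 on a log2 change of 1.19, limma adjusted p = 0.00332). For H1f4 and H1f5 the types overlapped, at 0.08 (SE 0.14) and 0.22 (SE 0.14), and H1f2 had −0.46 (SE 0.17, limma adjusted p = 0.0795).

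H2bc1, H2bc12 and H2bc14, whose mean over all tumours lay near that of normal cerebella, separated the types, whereas H2bc21 overlapped between them (0.27, SE 0.12, limma adjusted p = 0.121). H2bc12 averaged 3.05 ± 0.29 in R-type and 2.17 ± 0.14 in S-type tumours, 1.84-fold higher in R-type (log2 change 0.88, SE 0.11, limma adjusted p = 0.000466). All 6 R-type tumours lay above all 6 S-type tumours, and within slides the difference ran from 0.50 to 1.35. H2bc1 was 1.82-fold and H2bc14 1.83-fold higher, with the parallel probes noted before, and the second probe of H2bc12 gave 1.07.

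Set against normal cerebella, these genes lay on either side. S-type tumours were lower than normal cerebella by −0.52 for H2bc1, −0.53 for H2bc12 and −0.55 for H2bc14 (limma adjusted p = 0.00188, 0.00342 and 0.00279), and these calls passed under every alternative tried. R-type tumours were higher by 0.34, 0.35 and 0.32 (limma adjusted p = 0.0237, 0.0342 and 0.0496). The R-type calls rested on the scaling: without it the differences were 0.05, 0.06 and 0.03 and none passed. H2bc1 passed under 21 of 25 alternatives, H2bc12 under 13 and H2bc14 under 7. In all, 22 histone genes were higher and 3 lower in R-type tumours than in normal cerebella, where all features gave 42.6% and 34.8%. In S-type tumours 19 were higher and 6 lower, where all features gave 42.6% and 34.6%.

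**Figure D3:**
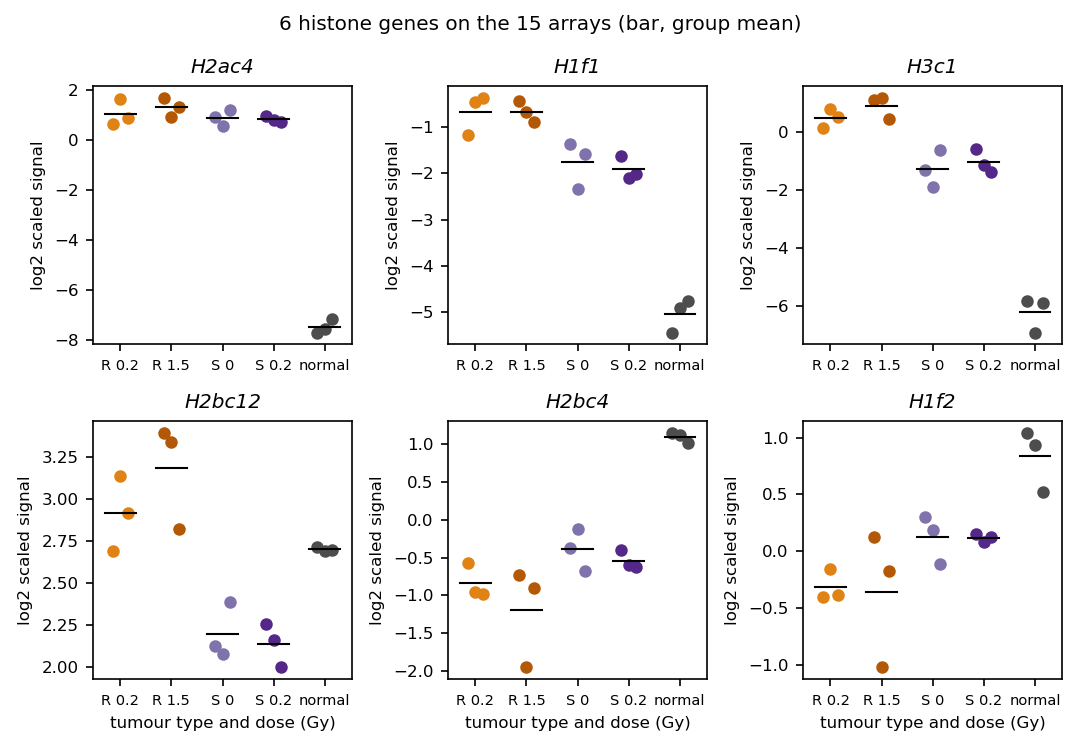
Log2 scaled signal of 6 histone genes on the 15 arrays (points), with the mean of each group of 3 arrays (bars). H2ac4, H1f1 and H3c1 are higher in all tumours than in normal cerebella, H2bc4 and H1f2 lower, and the normal values of H2bc12 (2.69 to 2.71) fall at the lower edge of the R-type values and above every S-type value.

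H4 genes differed by less. H4c1 averaged 3.33 ± 0.21 in R-type and 2.78 ± 0.21 in S-type tumours, 1.47-fold higher in R-type (log2 change 0.55, SE 0.11, limma adjusted p = 0.00615), with MB3 of the S-type and MB7 of the R-type overlapping. H4c14, H4c4 and H4c6 had 0.50, 0.47 and 0.45. The second probe of H4c4 gave 0.28 and did not pass (limma adjusted p = 0.145). H2ac10 (0.27, limma adjusted p = 0.0409) and H3c4 (0.25, limma adjusted p = 0.0449) passed narrowly, with overlapping types. For H2ac10 the second probe gave 0.31 and did not pass (limma adjusted p = 0.109). H2bc23 had means of −6.91 ± 0.72 in R-type and −5.82 ± 0.50 in S-type tumours (limma adjusted p = 0.0311). It was not well above background in any R-type tumour, so no fold is given. It entered the tests through 2 S-type tumours and 1 normal cerebellum alone. A lower value in R-type tumours was therefore built into its selection, and its adjusted p-value is no separate evidence of a difference.

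Of the 13 calls between the types, 7 passed under every alternative tried: H3c1, H1f1, H1f3, H2bc1, H2bc12, H2bc14 and H4c1. With slide in the fit as a block, 8 genes were higher and none lower. H3c4 failed under 19 of 25 alternatives and H2ac10 under 17. The remaining H2A genes, all with positive differences from 0.24 to 0.46, did not pass. H2bc4 had −0.55 (SE 0.19, limma adjusted p = 0.0567), with R-type values of −1.95 to −0.57 overlapping S-type values of −0.68 to −0.12.

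At 0.2 Gy, the dose shared by both types, 5 histone genes were higher in R-type than in S-type tumours (n = 3 each) and none was lower. Over all features, 1.98% were higher and 2.77% lower. The 5 were H2bc1 (0.77, SE 0.14), H2bc12 (0.77, SE 0.16), H2bc14 (0.77, SE 0.16), H1f1 (1.24, SE 0.29) and H3c1 (1.52, SE 0.38), with limma adjusted p-values from 0.0132 to 0.0415. H3c1 measured 0.15, 0.79 and 0.51 in the R-type tumours MB7 to MB9, against −0.58, −1.15 and −1.38 in the S-type tumours MB4 to MB6. H2bc12 measured 2.69, 3.13 and 2.91 in the same R-type tumours, against 2.26, 2.16 and 2.00 in the S-type tumours. Neither gene overlapped between the types. None of the 5 passed under all alternatives: fitted on the arrays of the comparison alone 1 gene passed, and with slide as a block 2 did. Leaving out 1 tumour at a time gave 0 to 7 genes, with 0 without MB9 or without MB6.

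Dose within a type gave no call. Between 0.2 Gy and 0 Gy in S-type tumours, 0 of 26 histone genes passed with limma and 0 had an unadjusted p under 0.05, with changes from −0.16 to 0.24, and over all features 1 passed (0.00462%) and 1242 had an unadjusted p under 0.05. Between 1.5 Gy and 0.2 Gy in R-type tumours, 0 passed and 1 had an unadjusted p under 0.05, with changes from −0.36 to 0.71, and over all features 15 passed (0.0693%) and 1524 had an unadjusted p under 0.05. The median over the histone genes was 0.25 for 1.5 Gy against 0.2 Gy, with 24 of 26 positive, and −0.06 for 0.2 Gy against 0 Gy, with 6 positive. The medians of all features were 0.0098 and −0.0006. The genes were read on the same arrays and some probes ran in parallel, so the counts of positive genes are no test of dose. Every alternative fit tried also gave 0 histone genes in both comparisons.

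Set side by side, the 4 tumour groups gave similar counts against the normal cerebella that they share. R-type tumours at 0.2 Gy had 19 histone genes higher and 3 lower, where all features gave 40.8% and 33.3%. R-type tumours at 1.5 Gy had 22 higher and 3 lower, where all features gave 41.2% and 33.4%. S-type tumours at 0 Gy had 19 higher and 5 lower (41.2% and 33% of all features), and those at 0.2 Gy had 19 higher and 5 lower (40.9% and 33%). These counts include the genes that entered through the tumours. Among the 22 genes measured in normal cerebella, 15 were higher and 3 lower in R-type tumours at 0.2 Gy, and 18 and 3 at 1.5 Gy. In each S-type group 15 of the 22 were higher and 5 lower. Of the 6 H2B genes, 3 passed as higher in R-type tumours at 1.5 Gy. Without scaling that group had 19 histone genes higher in place of 22. At 0.2 Gy the same genes, H2bc1, H2bc12 and H2bc14, had 0.22, 0.21 and 0.19 in R-type tumours and did not pass, and 1.5 Gy against 0.2 Gy did not pass for any of them (limma adjusted p = 0.779, 0.780 and 0.785). In both S-type groups 4 H2B genes passed as lower.

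Tumour by tumour, the median over the 26 genes of the difference from normal cerebella was 2.51 to 3.15 in R-type and 2.14 to 2.62 in S-type tumours. MB10 of the R-type had the highest value and MB2 of the S-type the lowest, and MB7 (2.51) of the R-type fell below MB3 (2.62) and MB4 (2.53) of the S-type. For the 6 H2B genes the medians were −0.04 to 0.48 in R-type and −0.66 to −0.34 in S-type tumours, against −0.01 to 0.04 in normal cerebella, and the types did not overlap. These medians lean on the parallel probes of H2bc1, H2bc12 and H2bc14 and are not a trait of every H2B gene. For H2bc21, H2bc4 and H2bc23 the types overlapped, and H2bc4 and H2bc23 averaged lower in R-type tumours. For the 21 S phase genes they were 4.10 to 4.33 in R-type and 3.96 to 4.35 in S-type tumours, which overlapped. Of these S phase genes 5 passed as higher in R-type tumours and none as lower, with a median difference of 0.22, and the other 3 lists above gave 5, 2 and 3 higher with 1 lower each. Their part in the histone difference was not tested.

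**Figure D4:**
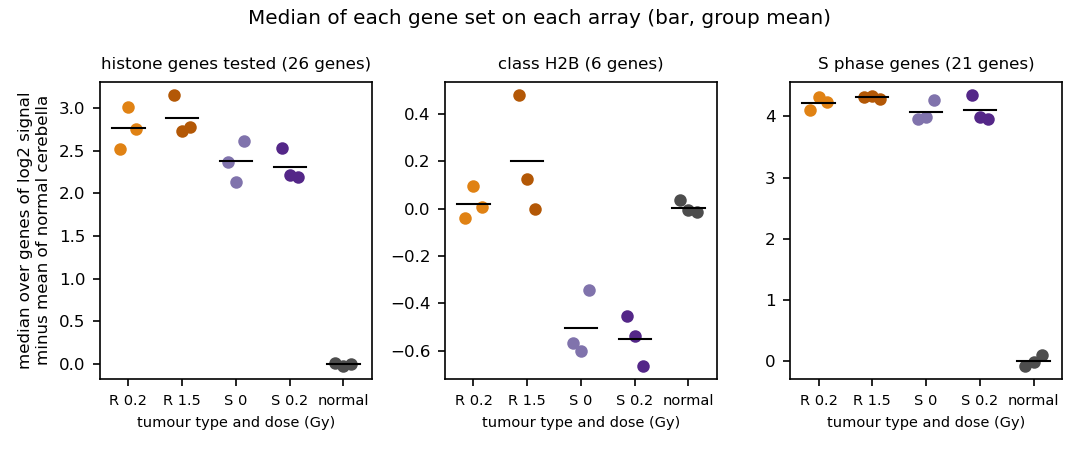
Median over all 26 tested histone genes, the 6 H2B genes and the 21 S phase genes of the log2 signal minus the mean of the normal cerebella, for each array (points), with group means (bars) and a separate vertical scale in each panel. The H2B medians of the R-type tumours (−0.04 to 0.48) lie above those of the S-type tumours (−0.66 to −0.34). These medians lean on the parallel probes of H2bc1, H2bc12 and H2bc14.

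Along chromosome 13 the histone genes lie among other genes, which were read as neighbours: those within the cluster and 20 on each side. Of 238 such genes, the array covered 52, and 22 of those could be tested. Between the tumour types, 11 of the 21 histone genes of the cluster were higher and 1 lower, with a median of 0.32. Of the 22 neighbours 1 was higher and 4 were lower, with a median of −0.25. The shares of all features were 11% higher and 10.1% lower. Taken as 1 value for each tumour, the median of the neighbours was −0.72 to 0.07 in R-type and −0.09 to 0.04 in S-type tumours. The difference of −0.25 did not pass an exact two-sided permutation test over the 12 tumours (p = 0.178, smallest possible 0.00216). Inside the cluster, 10 neighbours had a median of −0.10, among them Vmn1r192, Vmn1r195, Vmn1r200, Vmn1r201 and Vmn1r216. The neighbours that passed were Vmn1r192 as higher, and Zkscan4, Olfr1366, Vmn1r201 and Zfp322a as lower. On chromosome 3, 1 of 5 histone genes (H4c14) was higher, with a median of 0.27. The probe of H4c14 ran in parallel with those of the H4 genes on chromosome 13.

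**Figure D5:**
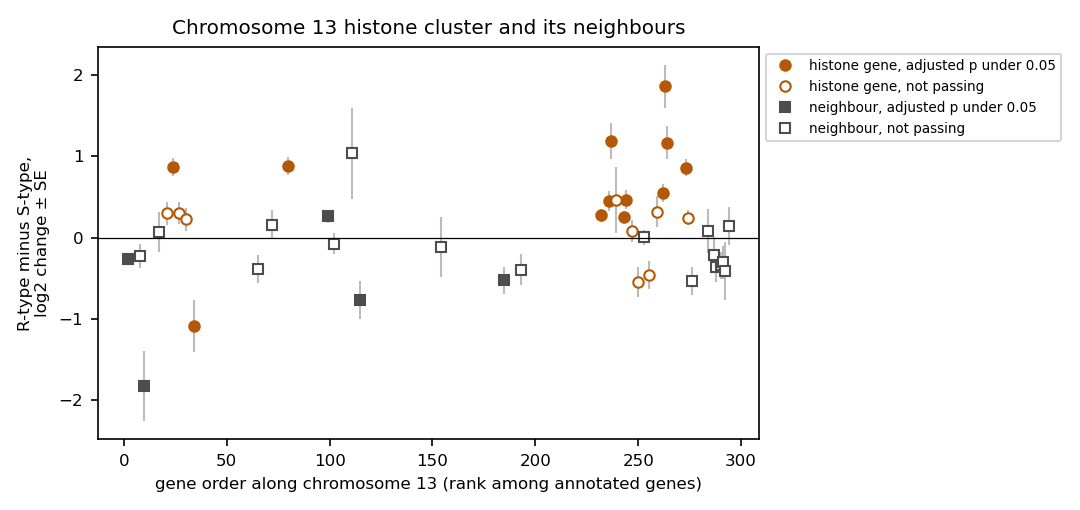
R-type minus S-type log2 change (points) with its standard error (bars) for the 21 tested histone genes and 22 neighbours, in gene order along chromosome 13. Histone genes lie mostly above 0 (median 0.32) and neighbours mostly below (median −0.25), and filled symbols passed at adjusted p under 0.05.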

How the data were processed

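The 12 tumour and 3 normal RNAs were each labelled in one colour and read on an Agilent mouse array. The deposited array files held spot intensities on a linear scale, background-subtracted and detrended but not scaled between arrays, per the file headers, with raw median pixel intensities and 0 or 1 flags (an "other" unit). The submitters' processing notes name Feature Extraction 9.5.1 as the scanner software. The deposited series table held log2 values whose making the authors did not state. Its differences between arrays correlated at 1.00 with the scaled signals and in each row MB1 and MB2 summed to 0, so its direction is that of the signals and each row is centred on that pair; why, and the scaling before it, are unknown. Its column medians were 0.0702, 0.13, 0.127, 0.0908, 0.151 and 0.0989 for MB7 to MB12, 0.0506, −0.0506, 0.106, 0.0682, −0.0795 and 0.0524 for MB1 to MB6, and 0.00239, 0.0819 and 0.089 for normal cerebella.

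The log2 processed signal less the array's 75th percentile was used. Spots of a probe were averaged and 79 of 41174 probes with outlier flags were left out. Of the 41095 kept, 24797 were named through their RefSeq accession. RefSeq genes and array positions use different assemblies, so gene order is given without coordinates. The probe with the highest mean stood for a gene, and testing needed a signal well above background on 3 or more arrays.

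Group means were fitted with limma 3.58.1 (R 4.3.3) over 5 groups, with eBayes (10 residual and 1.71 prior degrees of freedom), two-sided tests and Benjamini-Hochberg adjustment at 0.05. Tables were made with pandas 2.3.3 and numpy 2.4.6 in Python 3.11.15. The number of arrays limits the precision. The fit was tested on simulated data. Alternatives changed background, scaling, input, filter, probe choice, slide, samples fitted and replicates. The histone genes and lists were chosen with earlier results of these data known. Values are given for the 2 brightest genes of each class, the 8 highest and 8 lowest passing changes, up to 8 passing genes for each comparison of types or doses, and all H1 genes, and for each list the 4 smallest adjusted p-values and Slbp, Npat, Lsm10, Lsm11 and Casp8ap2. Other histone genes that are named were added after their values were seen.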

Additional observations from a re-analysis of the deposited data

Results flagged for a closer look

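H2bc1, H2bc12 and H2bc14 stood out because R-type tumours averaged above and S-type tumours below normal cerebella while the types differed, by 0.86, 0.88 and 0.87 log2 units (limma adjusted p = 0.000261, 0.000466 and 0.000501). The R-type calls against normal cerebella passed under 21, 13 and 7 of 25 alternatives and were lost without scaling. Their probes ran parallel, and which of the genes gave the signal cannot be told apart.

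H1f6 was not tested but was well above background in 1 R-type tumour, MB9, at a log2 signal of −2.64, while the other 14 arrays lay between −8.18 and −5.82 and were not.

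Among 52 sets of 6 tumours of a type, 3 values stood apart from the other 5, where chance gives about 1 in 20. H2bc4 in MB11 was at −1.95, with the other R-type tumours between −0.98 and −0.57. H3c14 in MB3 was at 6.75, with the other S-type tumours between 6.36 and 6.5044. H2ac8 in MB1 was at −4.03, with the other S-type tumours between −5.15 and −4.77.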

How the results depend on the processing

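Of the alternative values of counts and medians, 570 stayed within 1.5 times the count or within the spread between replicates of the median (0.20), and 32 moved. No single gene reversed a call. Without scaling, 5 histone genes were lower in tumours than in normal cerebella. In R-type against S-type tumours the same setting gave 7 higher and 3 lower, medians of 0.0887 for all, 0.0984 for chromosome 13 and 0.0464 for chromosome 3, and 1 lower at 0.2 Gy. With normexp and quantile normalisation the median change in tumours was 2.499 on chromosome 13 and 2.12 on chromosome 3, and 1 gene was lower in R-type tumours at 0.2 Gy. Without a filter on dim probes the chromosome 13 median was 2.56, and 3 genes were higher in R-type tumours at 0.2 Gy. Fitted on the arrays of the comparison alone, 0 genes were lower in R-type tumours and 1 was higher at 0.2 Gy; with slide as a block, 0 and 2. The stricter filter also gave 0 lower in R-type tumours. Leaving out 1 array gave 0 to 3 genes lower in R-type tumours, 0 to 7 higher at 0.2 Gy and 0 to 1 lower at 0.2 Gy. Of these, 3 were lower without MB10, 2 without MB3, and 0 without MB7, MB9, MB11, MB1, MB4, MB5 or MB6. At 0.2 Gy, 0 were higher without MB9 or MB6, 1 without MB8 or MB5 and 3 without MB4, and 1 was lower without MB10. The labels number normal cerebella and S-type tumours at 0 Gy from 1 to 3, but same-numbered samples did not deviate together (correlations of 0.05, −0.02 and 0.00). With a replicate block this comparison gave 19 higher and 5 lower, as without it, and no pairing was used. Genes near background, H2bc23 and H2ac8, had the largest errors. Causes were not tested.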
